A study of Homo sapiens with 18 samples.

Results

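The 10 genes described here are the AP-1 subunits FOS, FOSB, FOSL1, FOSL2, JUN, JUNB and JUND, the related factor ATF3, and the growth transcription factors EGR1 and MYC. They were chosen by symbol, and all 10 are listed in each of the 3 gene tables, among 15543 genes in the first, 31585 in the second and 32555 in the third. Poly(A) RNA of 18 libraries of human cell lines was sequenced, 3 libraries in each of 6 groups. SW480-P is the parental SW480 colon cancer line, and SW480-LM3 is the line derived from it by 3 rounds of selection for metastasis after injection into the spleen. EV-XP-NID1-LX-2 are LX-2 cells, a human hepatic stellate cell line, kept for 48 h with vesicles that carried the basement membrane protein nidogen-1 (NID1), and EV-XP-LX-2 are their control, whose vesicles the labels do not describe further. LV5-NID1 are SW480 cells that overexpress NID1 and were kept for 72 h with GW4869, a blocker of neutral sphingomyelinase used to reduce exosome output, and LV5 is their control. Whether LV5 cells also received GW4869 is not in the labels, so overexpression and inhibitor cannot be told apart in that comparison. They also do not say whether SW480-LM3 is 1 clone, or whether replicates were separate cultures, so p-values here measure only library-to-library spread, which could be technical.

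AP-1 is a dimer of a JUN family protein with a FOS family or ATF family partner, held together by leucine zippers, and it binds the DNA sequence TGACTCA or the related cyclic AMP response element. FOS, FOSB, JUNB, EGR1 and ATF3 are immediate early genes, transcribed within minutes of growth factor or stress signals without new protein synthesis, whereas FOSL1 (Fra-1) and FOSL2 (Fra-2) respond later and JUND is expressed more constantly. MYC, which dimerises with MAX to drive ribosome production and growth, is a target of Wnt signalling and is commonly high in colon cancer.

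These windows are shown because they hold the motifs found near the start sites: AP-1 and cyclic AMP response elements, bound by the JUN, FOS and ATF families, and in EGR1 the CArG boxes bound by serum response factor. Promoters of 300 bases, mostly before the start site, were taken from RefSeq, build GRCh38.p14, where 8 of the 10 genes matched with 9 start sites; FOSL1 and MYC were not matched. Capitals mark the motif found, and each line runs 5′ to 3′ on the strand of the gene. The FOS window is chr14:75278749-75278784 on the plus strand, FOSB is chr19:45467921-45467956 on the plus strand, FOSL2 is chr2:28392847-28392883 on the plus strand and JUN is chr1:58784092-58784129 on the minus strand. JUND is chr19:18281800-18281837 on the minus strand, EGR1 is chr5:138465359-138465420 on the plus strand and the upstream ATF3 start is chr1:212565269-212565306 on the plus strand.
FOS: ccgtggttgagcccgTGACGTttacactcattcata
FOSB: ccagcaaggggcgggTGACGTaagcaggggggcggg
FOSL2: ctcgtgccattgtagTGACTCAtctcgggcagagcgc
JUN: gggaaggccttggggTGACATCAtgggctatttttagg
JUND: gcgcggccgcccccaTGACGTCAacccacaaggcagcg
EGR1: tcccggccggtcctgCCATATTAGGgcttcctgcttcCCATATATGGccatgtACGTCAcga
ATF3: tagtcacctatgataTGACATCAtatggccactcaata

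The AP-1 site TGACTCA was found on either strand in 4.95% of the 35116 promoters of the table, and among these genes in FOSL2, from +5 to +11 of its start. The full cyclic AMP response element TGACGTCA was in 1.85% of promoters and in JUND, from -200 to -193. The variant TGACATCA, known from the JUN promoter, was in 2.61% of promoters and lay from -67 to -60 in JUN and from -123 to -116 in ATF3. The shorter core TGACGT, which lies within TGACGTCA, was in 7.98% of promoters and stood at nearly the same distance in FOS (-64 to -59), FOSB (-60 to -55) and FOSL2 (-66 to -61). As ACGTCA, which is TGACGT on the other strand, it also lay in EGR1 from -67 to -62 and from -136 to -131. In JUND a separate ACGTCA lay from -87 to -82. EGR1 had 2 CArG boxes, the core of the serum response element, from -105 to -96 and from -83 to -74, against 1.29% of all promoters with any. The ACGTCA in its window above is the one from -67 to -62. No promoter of these genes held the MYC-type E box CACGTG (7.26% of all promoters) or an EGR1 site, GCGTGGGCG or GCGGGGGCG (5.77%), and JUNB and the second ATF3 start held none of the motifs searched. TGACATCA and TGACGT were added to the search after these promoters had been seen, and a match of letters shows neither binding nor a cause.

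NID1 itself checks the label of LV5-NID1, the only group labelled as overexpressing it. For the other groups the labels name no NID1 mRNA level to check against. Its signal was 0.57, 0.58 and 0.35 in SW480-P and 44.7, 49.1 and 46.9 in SW480-LM3. In the LV5 table its mean was 0.020 TPM in LV5 and 359.9 TPM in LV5-NID1. In LX-2 cells, which received vesicles rather than a transgene, NID1 mRNA was 25.4 TPM in control and 20.8 TPM in treated cells. NID1 was called lower there, at a log2 fold change of -0.28 (limma adjusted p = 0.0372). SW480-LM3 and SW480-P values are normalised signal, read counts divided by a factor per library, from 15504205 to 18965163 reads; the other tables are in TPM (transcript counts scaled for length and library), with unknown depth. Of the colon epithelial markers 7 of 8 were listed and above 1 in the SW480-LM3 comparison. Their summed signal was 3522 to 3790 in SW480-P and 13175 to 13887 in SW480-LM3. Of 10 stellate or mesenchymal markers 5 were listed there, with a sum of 548 to 573 in SW480-P and 649 to 699 in SW480-LM3. In LX-2 cells 6 of 8 epithelial markers were listed, 2 of them at 1 TPM or more, with EPCAM, CDH1, VIL1 and CDX2 below 1. The epithelial sum was 248 to 261 TPM in control and 200 to 232 in treated libraries. For LX-2 cells 7 of 10 stellate markers were at 1 TPM or more, with LRAT and DCN below 1. The stellate sum was 2107 to 2279 TPM in control and 1416 to 1689 in treated libraries. In the LV5 libraries 4 of 8 epithelial markers were at 1 TPM or more, CDH1, VIL1, CDX2 and CDX1 were below 1, and the epithelial sum was 1631 to 1671 TPM in LV5 and 927 to 988 in LV5-NID1. Among markers of other cell types, the leukocyte sum was 43.6 to 46.5 TPM in control and 16.3 to 21.9 in treated LX-2 cells. Of its 5 genes 4 were below 1 TPM (PTPRC, LYZ, ITGAM and CD3E), so this sum is mostly CD68. The endothelial sum was 31.3 to 33.8 in SW480-P and 1.16 to 1.23 in SW480-LM3, with 2 of 5 genes listed, and 60.8 to 65.5 TPM in LV5 and 33.0 to 45.1 in LV5-NID1, with 3 of 5 listed. The hepatocyte sum was 48.9 to 54.9 in SW480-P and 94.7 to 97.2 in SW480-LM3, with 1 of 5 listed. The part of these marker changes in the results below was not tested; in bulk RNA, fewer cells of a type and less RNA per cell cannot be told apart.

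In SW480-LM3 the AP-1 genes moved in opposite directions: FOS fell 12.1-fold and JUNB 2.79-fold, while JUN rose 5.43-fold, FOSL1 3.30-fold, FOSL2 2.70-fold and JUND 2.06-fold against SW480-P. EGR1 fell, MYC and ATF3 rose by less than 1.5-fold, and FOSB did not pass the test. With 6 genes higher and 3 lower, 9 of the 10 were called by limma at an adjusted p under 0.05, against 87.8% of the 14527 genes tested (43.9% higher and 43.9% lower), so the number called is near that of all genes. Their median log2 fold change was 0.34, against -0.0041 over all genes tested.

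FOS, the founding immediate early AP-1 subunit, had a signal of 122, 124 and 122 in SW480-P and 9.94, 11.2 and 9.17 in SW480-LM3. The groups are far apart, with 1717 to 2132 reads behind each SW480-P value and 169 to 192 behind each SW480-LM3 value. The log2 fold change was -3.48 ± 0.07 (SE, n = 3 against 3; limma adjusted p = 3.77e-15), on the scale of log2(signal + 1) used throughout, which ranked FOS 539 by size among all genes tested. FOSB, its paralogue, was read at 3.06, 2.68 and 4.30 in SW480-P and 4.01, 2.63 and 2.87 in SW480-LM3, from 43 to 69 reads a library, and the groups overlapped. Its log2 fold change of -0.06 had a 95% interval of -0.42 to 0.31 (limma adjusted p = 0.762).

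FOSL1, which lacks the transactivation domain of FOS and is known for its part in invasion of carcinoma cells, had a signal of 28.4, 26.6 and 26.4 in SW480-P and 84.7, 92.6 and 91.7 in SW480-LM3. FOSL2, also without that domain, had 38.5, 46.7 and 44.7 in SW480-P and 110.6, 122.9 and 116.9 in SW480-LM3. Every SW480-LM3 library lay above every SW480-P library for both genes. The log2 fold changes were 1.69 ± 0.06 for FOSL1 (SE; limma adjusted p = 9.45e-13) and 1.41 ± 0.07 for FOSL2 (3.74e-11).

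JUN, the strongest activator of its family, had the clearest rise, from 39.2, 38.9 and 41.0 in SW480-P to 209.6, 219.4 and 218.2 in SW480-LM3. Its log2 fold change was 2.41 ± 0.04 (SE; limma adjusted p = 1.18e-15). JUNB, which can oppose JUN, went the other way, from 112, 103 and 103 to 34.6, 38.0 and 41.2, with a log2 fold change of -1.46 ± 0.06 (1.55e-11). The row of JUNB carries its symbol and Ensembl identifier in the first columns but RNASEH2A in a second symbol column; RNASEH2A has a row of its own with other values, and the first columns were used. JUND, the most constitutive JUN gene, was at 34.9, 40.1 and 36.9 in SW480-P and 67.7, 81.8 and 81.2 in SW480-LM3, without overlap, and its log2 fold change was 1.02 ± 0.08 (SE; limma adjusted p = 6.7e-09).

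EGR1, a zinc finger factor induced through serum response factor, fell from 67.7, 70.7 and 64.5 in SW480-P to 42.6, 43.4 and 44.6 in SW480-LM3, a log2 fold change of -0.62 ± 0.05 (SE; limma adjusted p = 4.7e-08). ATF3, a stress-induced member of the ATF family, was at 6.05, 5.42 and 6.41 and at 6.69, 8.48 and 8.95. The ATF3 groups were separated by little, the log2 fold change was 0.37 ± 0.13 (limma adjusted p = 0.0158), and the call was lost without SW480-LM3 replicate 2 (0.0584), without SW480-LM3 replicate 3 (0.0771), without SW480-P replicate 2 (0.0634) and with quantile normalization (0.172). MYC was high in both lines, at 154, 153 and 147 in SW480-P and 178, 194 and 189 in SW480-LM3. The MYC rise of 1.24-fold, a log2 fold change of 0.30 ± 0.04 (limma adjusted p = 6.7e-06), was small but larger than the spread of the libraries. It was near that of its GC class: MYC deviated from the SW480-P mean by 0.24, 0.36 and 0.32 (log2) in the SW480-LM3 libraries. Genes at 50 to 55% GC had medians of 0.27, 0.30 and 0.28 there. With the trend by GC content and transcript length removed, the MYC log2 fold change was 0.25.

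Genes rich in G and C were higher in SW480-LM3 as a class, with a median deviation of 0.63 to 0.69 from the SW480-P mean (log2) for genes at 60 to 65% GC and -0.37 to -0.45 for genes under 40%. JUN, FOSL2 and JUND were at 1.79, 0.52 and 0.42 (log2 fold change) with the trend by GC content and transcript length removed in each library. FOS and FOSL1 were then at -3.37 and 1.63, and JUNB, EGR1 and ATF3 at -1.825, -1.05 and 0.82. FOSB then passed the test as lower, at -0.80 (limma adjusted p = 0.000595). Scaling by library totals moved the median of all genes by 0.26 (log2) and gave -0.34 for EGR1, 0.62 for ATF3 and 0.59 for MYC, with FOSB at 0.16 (adjusted p = 0.372). Under quantile normalization MYC was at 0.53.

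**Figure D1:**
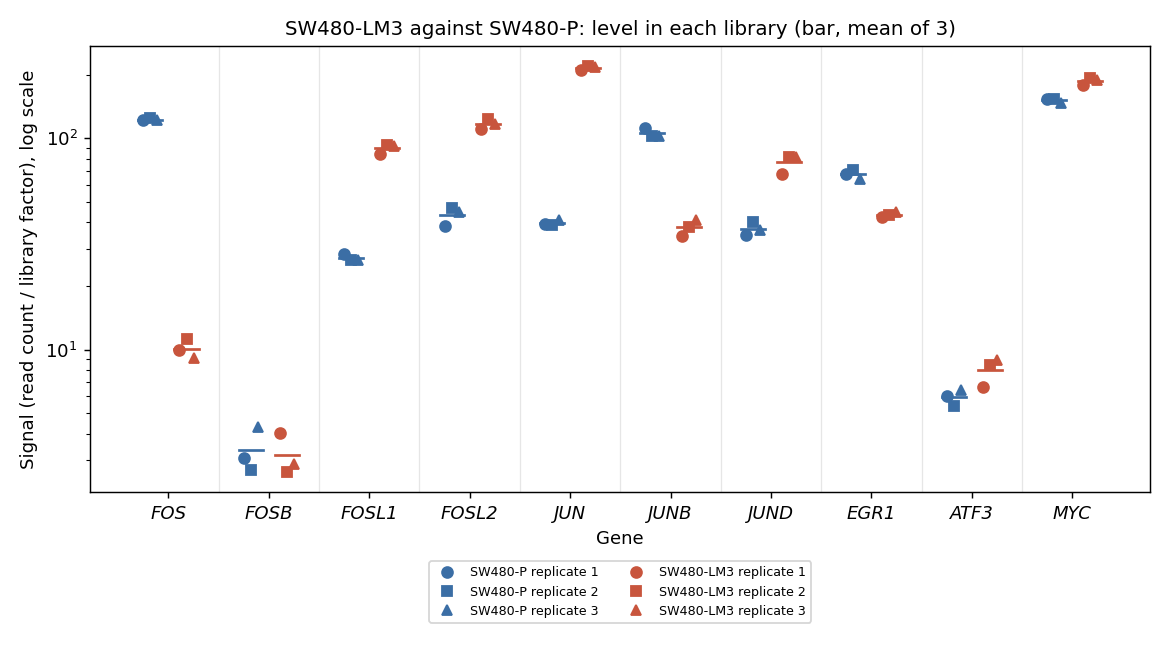
Normalised signal (log axis) of the 10 genes in the 3 SW480-P and 3 SW480-LM3 libraries; points are libraries and bars are the mean of 3. FOS drops from 122 to 124 down to 9.17 to 11.2, JUN climbs from 38.9 to 41.0 up to 209.6 to 219.4, and the FOSB points overlap.

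Lists of pathway genes around these factors were read from the same fit, in which 87.8% of all genes were called, 43.9% in each direction. Of 16 ERK feedback genes, which ERK signalling induces and which mostly damp it, 14 rose and none fell in SW480-LM3, with a median log2 fold change of 1.96 against -0.0041 over all genes, and the 87.5% called is at the share of all genes; limma at an unadjusted p under 0.05, edgeR and DESeq2 also gave 14 higher and 0 lower, while 2 were called lower with the GC and length trend removed and 1 with quantile normalization. PHLDA1 rose from a mean signal of 31.1 to 959, the ETS factor ETV5 from 19.4 to 123 and the phosphatase gene DUSP4 from 16.5 to 101. Other immediate early genes were divided, with 11 of 21 higher and 7 lower: IER3 rose from 61.9 to 250.9, whereas CYR61, a matricellular YAP target, fell from 145 to 2.51 and the kinase gene SGK1 from 85.7 to 1.07. The number of these called higher was 7 with a mean of at least 5 required and 14 with library-total scaling.

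Of 13 known AP-1 targets 11 rose and 2 fell, against 8 higher and 4 lower with the GC and length trend removed. VEGFA, an angiogenic factor, rose from 49.6 to 150 and PLAU, the urokinase gene, from 1.70 to 13.8. The cell surface receptor gene CD44 was a target that fell, from 205 to 19.9. Of 10 EGR1 partners and targets 8 rose and 1 fell, and PDGFA, a growth factor, went from 21.5 to 112. With the GC and length trend removed 6 of them rose and 3 fell. All 11 stress response genes listed around ATF3 rose by limma, against 43.9% of all genes. They also rose in each alternative run, edgeR and DESeq2 included. Among them were GADD45A (20.4 to 148), TRIB3 (26.9 to 124) and DDIT4 (106 to 331). Of the AP-1-like bZIP factors 9 of 17 rose and 7 fell, with ATF4, the activator of the amino acid response, going from 151 to 328 and ATF6 from 138 to 33.0.

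MYC rose in SW480-LM3, where 43.9% of all genes tested were called in each direction. Of 30 of its known growth targets 23 fell, 5 rose and 2 did not pass, with a median log2 fold change of -1.002. Library-total scaling gave 18 lower, and 25 were lower and 3 higher with the GC and length trend removed. The nucleolar protein gene NPM1 fell from 4768 to 1046 and the nucleoside diphosphate kinase gene NME1 from 723 to 132, while the pyrimidine synthesis gene CAD rose from 46.0 to 168. In the MYC network 13 of 21 rose and 7 fell: the cofactor gene TRRAP went from 33.9 to 165, and PVT1, the long noncoding RNA beside MYC, from 21.4 to 2.94. Of 8 genes that MYC is known to repress 3 rose and 2 fell, among them TXNIP (58.2 to 206) and the cell cycle inhibitor gene CDKN1A (20.9 to 7.38), and 5 rose with library-total scaling. In the MAP kinase cascade 11 of 20 rose and 6 fell, with NRAS at 221 and 93.1.

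In LX-2 cells, where values per length allow genes to be compared within a library, FOSL1 and JUN were the leading AP-1 transcripts. FOSL1 stood at a mean of 527 TPM in EV-XP-LX-2 and JUN at 267, followed by MYC (114), ATF3 (100.3), EGR1 (87.5), JUNB (86.3), FOSL2 (64.9) and JUND (45.2), with FOSB (3.13) and FOS (3.00) far below. EGR1 and JUNB, and FOSB and FOS, overlapped between libraries and cannot be ordered. FOSL1 made up 88.1% ± 0.052 (SD, n = 3) of the TPM of the 4 FOS family genes in control and 87.5% ± 0.14 in treated cells, and JUN 67.0% ± 0.43 and 66.7% ± 0.52 of the JUN family.

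With NID1 vesicles, all 4 FOS family genes and ATF3 rose, EGR1 and MYC fell, and no JUN family gene passed the test. The changes were modest: 1.86-fold for FOSB, 1.59-fold for FOS, 1.57-fold for ATF3, 1.20-fold for FOSL2 and 1.18-fold for FOSL1, with EGR1 1.31-fold and MYC 1.24-fold lower. By limma 7 of 10 were called against 42.3% of the 15802 genes tested, 5 of them higher (17.8% of all genes) and 2 lower (24.6%). The median log2 fold change was 0.18 over the 10 genes and -0.048 over all genes. Among called genes 41.9% were higher, against 50.8% with quantile normalization, 51.2% with median-ratio scaling and 51.3% with the GC and length trend removed.

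FOSB was at 3.12, 3.28 and 3.00 TPM in control and 6.06, 5.27 and 6.11 TPM in treated libraries. All treated values exceeded all control values, and the log2 fold change of TPM + 1 was 0.72 ± 0.10 (SE, n = 3 against 3; limma adjusted p = 0.00152). FOS was at 2.70, 3.45 and 2.84 TPM in control and 5.93, 4.25 and 4.15 TPM in treated libraries, with treated replicate 1 above the others. Its log2 fold change was 0.52 ± 0.15 (limma adjusted p = 0.0257), and it no longer passed without control replicate 1 (0.0847), control replicate 3 (0.0726) or treated replicate 1 (0.0612). A pseudocount of 5 gave 0.29 for FOS and 0.41 for FOSB.

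FOSL1 was at 523, 548 and 510.0 TPM in control and 670.1, 561 and 630.3 TPM in treated libraries, and FOSL2 at 64.2, 67.5 and 63.0 TPM and 84.7, 70.2 and 78.5 TPM. For both genes the groups did not overlap, but treated replicate 2 lay just above the highest control. The log2 fold changes were 0.23 ± 0.07 for FOSL1 (SE; limma adjusted p = 0.0322) and 0.26 ± 0.07 for FOSL2 (0.0273). The FOSL1 call was lost without control replicate 1 (0.0923), 2 (0.0511) or 3 (0.103), without treated replicate 1 (0.0851) or 3 (0.0864), and with quantile normalization (0.078, adjusted p = 0.508). The FOSL2 call was lost without control replicate 1 (0.0822) or 3 (0.0868) and without treated replicate 1 (0.0702) or 3 (0.0722). The GC and length correction raised the log2 fold changes to 0.38 for FOSL1 and 0.39 for FOSL2.

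JUN was at 261, 282 and 259 TPM in control and 285, 239.7 and 281 TPM in treated libraries, with overlapping groups. Its log2 fold change was 0.0019, with a 95% interval of -0.17 to 0.18 (limma adjusted p = 0.986), and 0.16 with the GC and length trend removed (0.0208). JUNB was at 84.0, 89.5 and 85.6 TPM and 103, 82.6 and 96.9 TPM, and JUND at 42.0, 49.3 and 44.3 TPM and 42.7, 36.1 and 40.1 TPM. JUNB, at 0.12 (95% interval -0.07 to 0.31; adjusted p = 0.283), passed the test as higher without treated replicate 2 (0.21, adjusted p = 0.0127), with median-ratio scaling (0.18, 0.0345) and with the GC and length trend removed (0.32, 0.000744). JUND had a log2 fold change of -0.19 (95% interval -0.38 to 0.01; limma adjusted p = 0.114) and 0.069 with that trend removed. Treated replicate 2 was low for GC-rich genes as a class, with a median deviation of -0.32 at 60 to 65% GC and -0.43 above, where JUNB (64.9%) and JUND (69.7%) lie.

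EGR1 was at 84.7, 93.0 and 84.9 TPM in control and 68.4, 60.5 and 72.0 TPM in treated libraries, all of them lower. Its log2 fold change was -0.38 ± 0.07 (SE; limma adjusted p = 0.00621), and -0.25 with the GC and length trend removed. ATF3 had the firmest change of the set in LX-2 cells, from 97.7, 106 and 97.3 TPM to 167, 149.6 and 156 TPM, with a log2 fold change of 0.65 ± 0.06 (SE; limma adjusted p = 0.000445). MYC was at 114, 120.5 and 107 TPM in control and 90.9, 85.1 and 98.0 TPM in treated libraries, without overlap, and its log2 fold change was -0.31 ± 0.07 (limma adjusted p = 0.0102). FOSB, EGR1, ATF3 and MYC kept their calls in every alternative in which they were fitted.

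**Figure D2:**
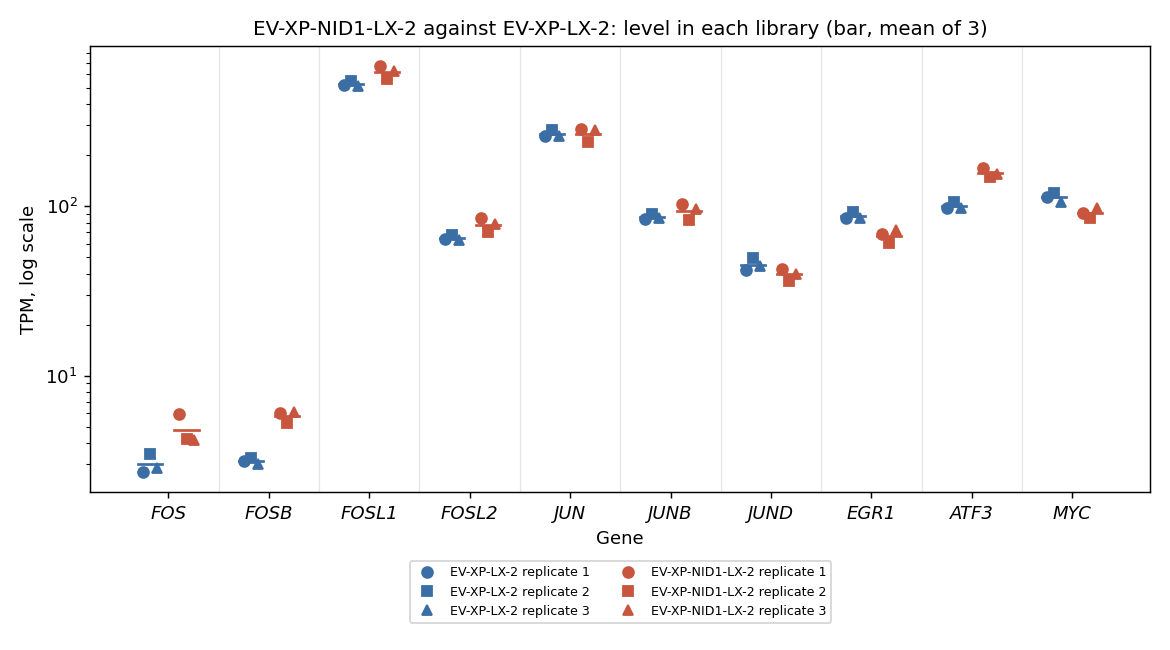
TPM (log axis) of the 10 genes in the 3 EV-XP-LX-2 and 3 EV-XP-NID1-LX-2 libraries; points are libraries and bars are the mean of 3. FOSL1 is the highest gene in all libraries, ATF3 moves up from 97.3 to 106 TPM to 149.6 to 167 TPM, and the JUN points overlap.

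Of 16 other immediate early genes in LX-2 cells 6 rose, 10 did not pass and none fell by limma (1 at an unadjusted p under 0.05, and 2 with quantile normalization), a share called of 37.5% against 42.3% of all genes: KLF10, a TGF-beta inducible factor, went from 115 to 251.4 TPM, the mRNA decay factor ZFP36 from 7.41 to 11.9 TPM and the nuclear receptor NR4A3 from 1.44 to 2.91 TPM. Of 15 ERK feedback genes 7 rose and 1 fell, with PHLDA1 at 130 and 174 TPM, SPRY4 at 11.5 and 17.7 TPM and DUSP7 at 17.4 and 24.0 TPM. Of 16 AP-1 targets 7 rose and 3 fell, while of all genes 17.8% were called higher and 24.6% lower. The fibrogenic cytokine gene IL11 rose from 91.2 to 208 TPM and the stromelysin gene MMP3 from 7.82 to 15.4 TPM. Leaving out control replicate 1 or 3 left 1 AP-1 target lower, leaving out treated replicate 1 gave 2 ERK feedback genes and 1 other immediate early gene lower, and without control replicate 2 no ERK feedback gene was lower.

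The stress response genes listed around ATF3 were divided, with 4 of 11 higher and 5 lower, and at least 4 and exactly 5 in all alternatives. Of all genes tested in LX-2 cells 17.8% were called higher and 24.6% lower. ATF4 rose from 459 to 629 TPM and the phosphatase subunit gene PPP1R15A from 643 to 1023 TPM, whereas DDIT3 (CHOP) fell from 144 to 101 TPM, TRIB3 from 112 to 69.8 TPM and DDIT4 from 86.0 to 43.8 TPM. Of 16 AP-1-like bZIP factors 6 rose and 3 fell, among them ATF5 (12.5 to 23.9 TPM) and NFE2L1 (155 to 81.4 TPM). Leaving out control replicate 1 or 2, or quantile normalization, left 1 of these bZIP genes lower. In the MAP kinase cascade 3 of 20 rose and 3 fell, and ARAF went from 65.4 to 44.0 TPM and the ETS factor ELK3 from 65.3 to 44.4 TPM. Of 10 EGR1 partners and targets 1 rose and 2 fell, the latter including FN1, the fibronectin gene, from 486 to 343 TPM. The MAP kinase and EGR1 lists each had 30% called, below the 42.3% of all genes. Without any single control library 1 MAP kinase gene was higher and 1 EGR1 partner lower, and without treated replicate 2 there were 7 and 3 higher. MAP kinase genes called higher were 8 with median-ratio scaling and 7 with the GC and length trend removed, and EGR1 partners called higher were 2 and 3.

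MYC fell in LX-2 cells, where 17.8% of all genes tested were called higher and 24.6% lower. Of 29 of its listed growth targets 17 rose and 1 fell, with a median log2 fold change of 0.20 against -0.048 over all genes. ODC1, the rate-limiting enzyme of polyamine synthesis, rose from 283 to 510 TPM and the transferrin receptor gene TFRC from 99.7 to 148 TPM, while LDHA, lactate dehydrogenase, fell from 794 to 481 TPM. The number of targets called higher was 12 to 19 over the alternatives, lowest without control replicate 3. Of 20 genes in the MYC network 2 rose and 5 fell, including the MAX partners MXD1 (7.70 to 11.5 TPM) and MXD3 (12.5 to 6.73 TPM). The 35% called in the network is below the 42.3% of all genes. Of 7 genes that MYC is known to repress 4 rose and 1 fell, with TXNIP at 185 and 265 TPM and NDRG1 at 57.7 and 26.1 TPM. The network count turned from mostly lower to 7 higher and 5 lower with the GC and length trend removed, and 5 were higher with median-ratio scaling or quantile normalization. Without treated replicate 2 there were 5 network genes higher, without treated replicate 1 there were 3 growth targets lower, and without control replicate 1 or 2 there were 2 repressed genes higher.

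In the LV5 table MYC led the set at a mean of 149 TPM in LV5, followed by ATF3 (36.03), JUNB (35.4), FOSL2 (32.9), FOSL1 (27.3), JUND (21.6), JUN (7.50), FOS (6.47), EGR1 (3.21) and FOSB (0.863). ATF3, JUNB and FOSL2 overlapped between libraries and cannot be ordered, while JUN and FOS did not overlap. FOSL2 and FOSL1 together carried most of the FOS family TPM, at 48.7% ± 1.2 and 40.5% ± 1.6 (SD, n = 3) in LV5 and 43.8% ± 0.98 and 47.7% ± 1.4 in LV5-NID1.

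In LV5-NID1, FOS, FOSL2, EGR1 and ATF3 fell and none of the 9 genes tested rose by limma, also none at an unadjusted p under 0.05. EGR1 was 2.28-fold lower, FOS 1.82-fold, FOSL2 1.52-fold and ATF3 1.37-fold. By limma 4 of the 9 genes tested were called, all lower, against 16.6% of the 15508 genes tested (7.27% higher and 9.32% lower); FOSB was below the filter of 1 TPM in 3 libraries. The median log2 fold change was -0.58 over these 9 genes and 0.0059 over all genes. Among called genes 43.8% were higher, against 54.8% with quantile normalization. The number of genes called in all was 713 without LV5 replicate 1 and 3325 without LV5-NID1 replicate 3.

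FOS was at 6.34, 6.93 and 6.14 TPM in LV5 and 3.69, 3.99 and 2.97 TPM in LV5-NID1. The groups did not overlap, and the log2 fold change was -0.72 ± 0.11 (SE, n = 3 against 3; limma adjusted p = 0.0119), which missed the threshold without LV5 replicate 1 (0.0539) or 2 (0.0582). With a pseudocount of 5 it was -0.43 for FOS and -0.36 for EGR1. FOSB was listed at 1.04, 0.77 and 0.78 TPM and 0.75, 0.69 and 0.49 TPM.

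FOSL2 fell evenly, from 33.6, 33.9 and 31.1 TPM to 22.2, 22.1 and 20.8 TPM, with a log2 fold change of -0.58 ± 0.06 (SE; limma adjusted p = 0.00429). FOSL1 was at 28.6, 26.2 and 27.2 TPM in LV5 and 25.3, 22.8 and 22.7 TPM in LV5-NID1. Although the FOSL1 groups did not overlap, its log2 fold change of -0.20 ± 0.07 missed the threshold (limma adjusted p = 0.0907) and was 0.022 with the GC and length trend removed. The FOS family sum was 67.5 ± 2.2 TPM in LV5 and 49.5 ± 2.5 TPM in LV5-NID1 (SD, n = 3).

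JUN was at 8.16, 7.05 and 7.30 TPM in LV5 and 9.42, 8.0 and 5.51 TPM in LV5-NID1, with overlapping groups and a log2 fold change of -0.0012 (95% interval -0.44 to 0.43; limma adjusted p = 0.997). JUNB was at 35.99, 37.9 and 32.2 TPM in LV5 and spread over 26.6, 14.3 and 1.23 TPM in LV5-NID1. JUND was at 23.3, 23.8 and 17.5 TPM in LV5 and 20.5, 10.4 and 7.50 TPM in LV5-NID1. JUNB did not overlap between groups while JUND did, and in both LV5-NID1 replicate 3 was the lowest library. Their log2 fold changes of -1.89 ± 0.89 for JUNB and -0.81 ± 0.34 for JUND did not pass (SE; limma adjusted p = 0.188 and 0.153).

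LV5-NID1 replicate 3 stood apart for GC-rich genes in general, and its part in the JUNB and JUND values was not tested. Its median deviation from the LV5 mean was -0.73 (log2) over 1493 genes at 60 to 65% GC and -1.18 over 419 genes above 65%, against -0.16 and -0.25 in replicate 2 and -0.02 and -0.03 in replicate 1. JUNB, with 64.9% GC, deviated by -0.39, -1.24 and -4.02 in replicates 1, 2 and 3, each below the median of its class. JUND, with 69.7% GC, deviated by -0.06, -0.97 and -1.40. Without replicate 3 the log2 fold changes were -0.82 for JUNB (limma adjusted p = 0.0589) and -0.51 for JUND (0.231), and with the GC and length trend removed as well they were -0.69 (0.0397) and -0.34 (0.258). JUND passed the test without LV5-NID1 replicate 1 (-1.18, adjusted p = 0.027).

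**Figure D3:**
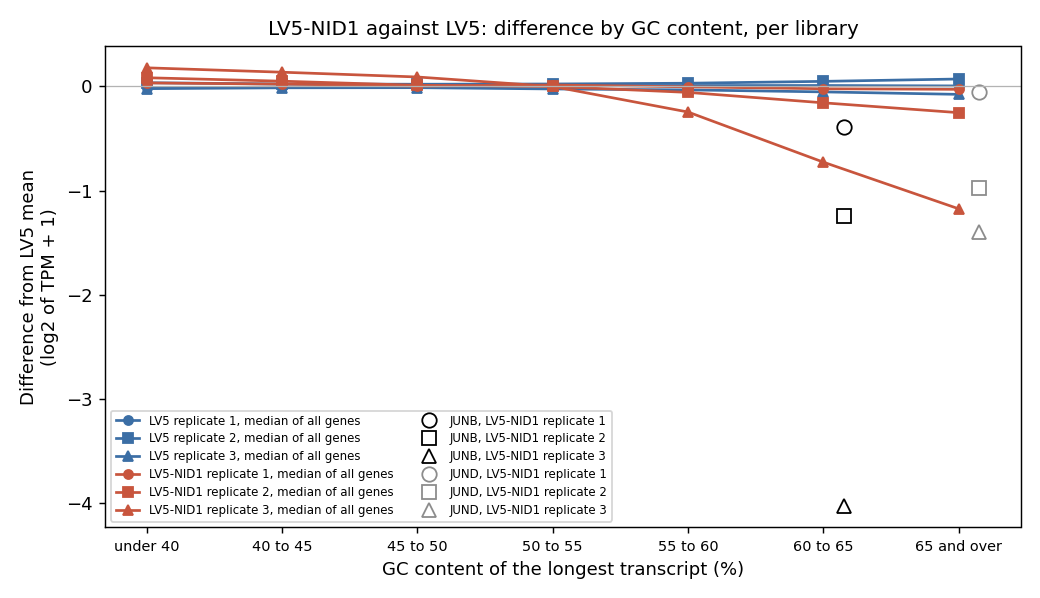
Difference of each library from the LV5 mean (log2 of TPM + 1) by GC content of the longest transcript; lines are medians of all genes tested in a GC class and open symbols are JUNB and JUND in the LV5-NID1 libraries. Replicate 3 of LV5-NID1 bends down to -1.18 in the class above 65% GC, and JUNB lies at -4.02 in that library.

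EGR1 fell from 3.28, 3.20 and 3.14 TPM to 1.59, 1.35 and 1.28 TPM, a log2 fold change of -0.81 ± 0.09 (SE; limma adjusted p = 0.00516), with the 3 LV5-NID1 libraries close together. ATF3 was at 41.2, 33.1 and 33.7 TPM in LV5 and 27.3, 24.2 and 27.6 TPM in LV5-NID1. The ATF3 groups did not overlap, but its log2 fold change of -0.43 ± 0.10 (limma adjusted p = 0.0394) missed the threshold in 5 of the 6 fits that left out a library, all but the one without LV5-NID1 replicate 3, and with quantile normalization (0.0683). MYC was at 150.2, 152 and 144 TPM in LV5 and 192, 172 and 153 TPM in LV5-NID1, each above LV5. Its log2 fold change of 0.20 ± 0.09 did not pass (limma adjusted p = 0.154), but it did without LV5-NID1 replicate 3 (0.28, adjusted p = 0.0229) and with the GC and length trend removed (0.28, 0.0185).

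**Figure D4:**
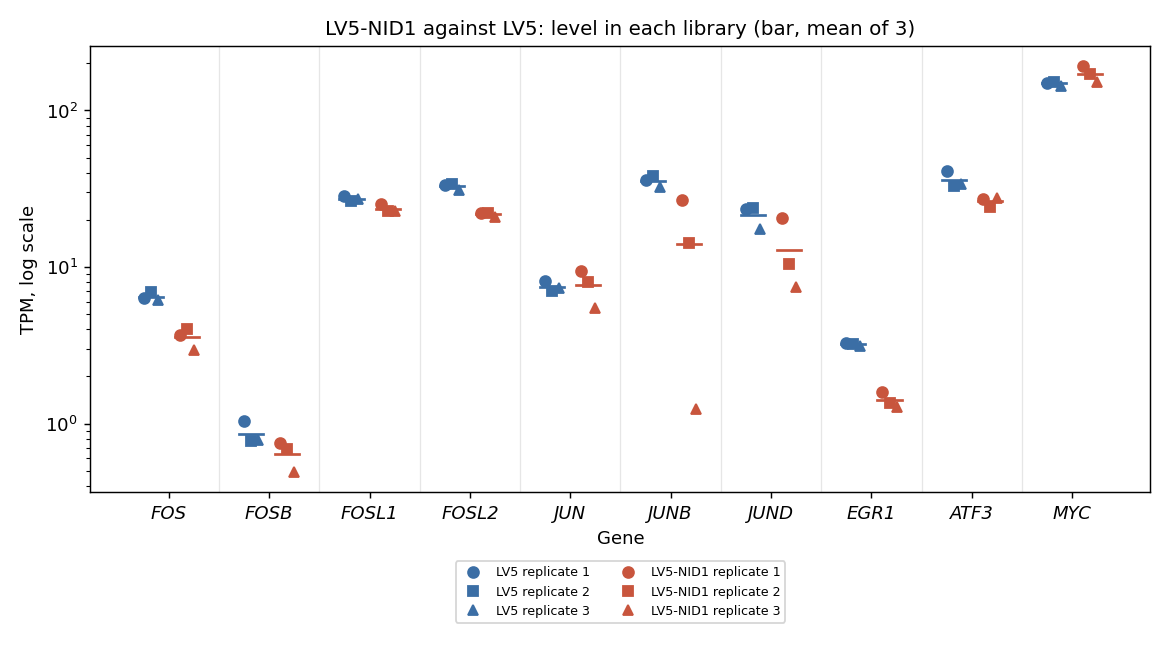
TPM (log axis) of the 10 genes in the 3 LV5 and 3 LV5-NID1 libraries; points are libraries and bars are the mean of 3. FOS, FOSL2 and EGR1 shift down in all 3 LV5-NID1 libraries, while JUNB spreads from 26.6 to 1.23 TPM.

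Of all genes tested in LV5-NID1 9.32% were called lower and 7.27% higher. Of 15 other immediate early genes 6 fell in LV5-NID1, 9 did not pass and none rose by limma (1 at an unadjusted p under 0.05, and 1 with the GC and length trend removed or with a mean of at least 5 required). The number lower was 4 to 8 over the alternatives, and 4 without LV5 replicate 1, LV5 replicate 2 or LV5-NID1 replicate 2. The phosphatase gene DUSP1 fell from 81.6 to 37.9 TPM, the orphan receptor gene NR4A1 from 38.4 to 20.6 TPM, KLF4 from 84.9 to 51.6 TPM and SGK1 from 49.1 to 30.1 TPM. Of 9 EGR1 partners and targets 4 fell and none rose (1 at an unadjusted p under 0.05 by limma, and 1 with quantile normalization), including PDGFA (16.1 to 9.32 TPM) and F3, the tissue factor gene (12.7 to 8.16 TPM); without LV5 replicate 2 there was 1 lower, and without LV5 replicate 1 or 3 there were 2. Of 13 AP-1 targets 4 fell and 2 rose, with IL6 at 3.75 and 1.39 TPM and CD44 at 127 and 157 TPM. In each fit that left out a library other than LV5-NID1 replicate 3, 2 of these targets were lower and 0 or 1 higher. The replicate block gave 2 AP-1 targets and 2 EGR1 partners lower, and quantile normalization 2 AP-1 targets lower.

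ERK feedback genes were divided in LV5-NID1, with 4 of 15 higher and 3 lower, against 7.27% of all genes higher and 9.32% lower. PHLDA1 fell from 5.10 to 2.80 TPM and DUSP5 from 11.6 to 7.53 TPM, whereas ETV5 rose from 13.7 to 23.2 TPM. With the GC and length trend removed 7 were higher, and with the replicate block 1. Without LV5 replicate 1 there was 1 called in each direction, without LV5-NID1 replicate 2 there were 2 higher and 1 lower, and without LV5 replicate 2, LV5 replicate 3 or LV5-NID1 replicate 1 there were 2 higher. Of 14 AP-1-like bZIP factors 2 fell by limma, CREM (82.5 to 62.3 TPM) and NFE2L2 (113 to 89.3 TPM). Of 11 stress response genes listed around ATF3 only GADD45A fell (32.8 to 23.2 TPM). None of these 2 lists rose by limma, against 3 and 1 at an unadjusted p under 0.05. With the GC and length trend removed 1 bZIP gene rose and 3 stress response genes fell, and with quantile normalization 1 of each list rose. In the MAP kinase cascade 2 of 20 rose, among them ELK4 (18.2 to 22.6 TPM), and none fell (4 at an unadjusted p under 0.05 by limma). The share called was 14.3% of bZIP factors, 9.09% of stress response genes and 10% of MAP kinase genes, against 16.6% of all genes. Leaving out a library gave 0 to 4 bZIP genes lower (4 without LV5-NID1 replicate 3, 1 without LV5-NID1 replicate 1 and 0 otherwise) and 4 stress genes lower without LV5-NID1 replicate 3 or 3 without LV5-NID1 replicate 1. MAP kinase genes called higher were 0 without LV5 replicate 1, LV5 replicate 2 or LV5-NID1 replicate 2 and 1 without LV5 replicate 3 or LV5-NID1 replicate 1, and 1 was lower without LV5-NID1 replicate 1 or 3.

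In LV5-NID1 7.27% of all genes tested were called higher and 9.32% lower, with a median log2 fold change of 0.0059. Growth targets of MYC rose in 9 of 29 cases in LV5-NID1 and none fell by limma (1 at an unadjusted p under 0.05), with a median log2 fold change of 0.12. The nucleolar genes GNL3 (107 to 143 TPM), NPM1 (3237 to 3993 TPM) and NOLC1 (148 to 197 TPM) were among them. The number higher was 2 without LV5 replicate 2, 3 without LV5 replicate 1, LV5 replicate 3 or LV5-NID1 replicate 2, 3 with the replicate block, 5 without the low-value filter, and 15 with the GC and length trend removed and LV5-NID1 replicate 3 left out. In the MYC network 3 of 20 rose, among them the MAX partner MXI1 (13.4 to 23.8 TPM) and PVT1 (49.8 to 77.5 TPM), and none fell (1 at an unadjusted p under 0.05). The 15% called in the network is near the 16.6% of all genes. Of 8 genes that MYC is known to repress 1 rose, TXNIP from 16.7 to 47.5 TPM, and 3 fell, with CDKN1A at 76.4 and 33.1 TPM. Without LV5-NID1 replicate 3 there was 1 growth target and 1 network gene lower.

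Set side by side, EGR1 was lower in all 3 comparisons, at -0.62 in SW480-LM3, -0.38 in LX-2 cells and -0.81 in LV5-NID1 (log2 fold change), each past the threshold. FOS was at -3.48, 0.52 and -0.72, with the LX-2 value of the opposite sign. FOSL2 was at 1.41, 0.26 and -0.58, and ATF3 at 0.37, 0.65 and -0.43. MYC was at 0.30, -0.31 and 0.20, and JUN at 2.41, 0.0019 and -0.0012. The comparisons share no libraries and were scaled separately, and differences between them were not tested.

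**Figure D5:**
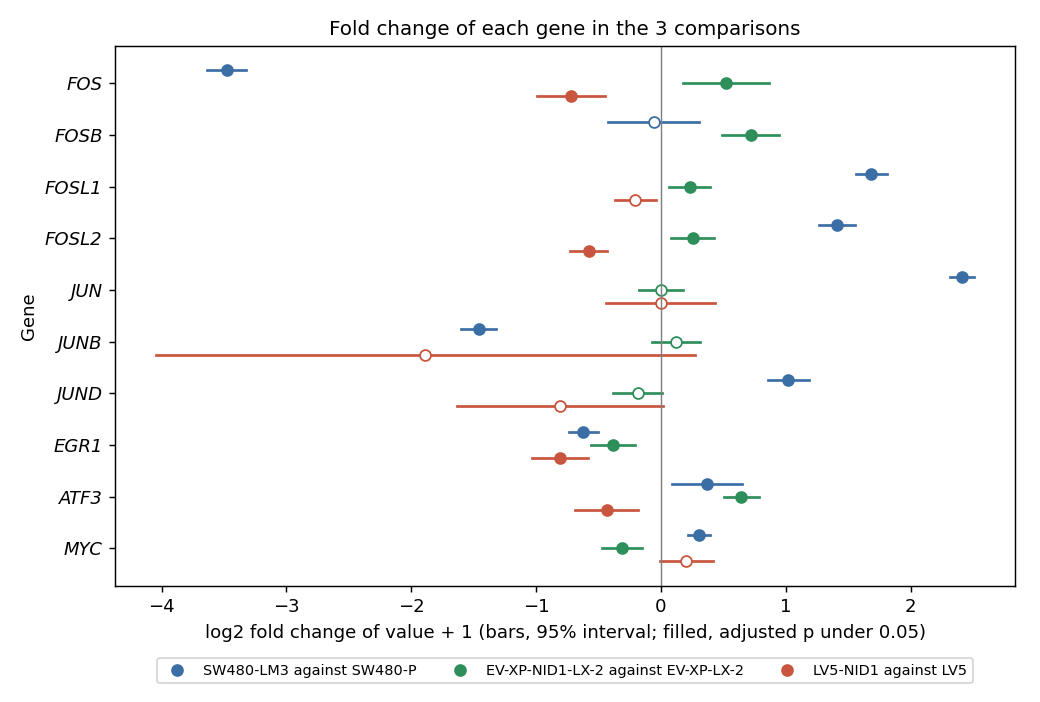
Log2 fold change of value + 1 (x axis) of each gene (y axis) in the 3 comparisons; points are limma estimates, bars are 95% intervals and filled points passed an adjusted p of 0.05. EGR1 lies left of 0 in all 3 comparisons, and the interval of JUNB in LV5-NID1 runs from -4.04 to 0.27.

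Some genes outside the set had nearly the same 3 log2 fold changes, by Euclidean distance among the 10224 genes tested in all tables that were called in the same comparisons. Nearest to FOS were PLAC8 (-3.60, 0.57 and -0.54 in the order above; distance 0.22), STXBP6 (0.27) and KITLG (0.37). Nearest to EGR1 were DDX60L (-0.77, -0.46 and -0.75; distance 0.17), ARMC9 (0.20) and ASPH (0.25). FOSL1 was nearest to STRN4 (0.051) and LARP4B (0.059), and MYC to BSDC1 (0.057) and DCBLD1 (0.071). The distances rest on 3 values a gene, and 687 candidates were searched for FOS and EGR1 against 3302 for FOSL1 and MYC.

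In the annotation used for GC content, FOSB overlaps ERCC1, JUNB overlaps HOOK2 and FOSL2 overlaps the antisense gene FLJ31356 and the sense intronic gene AC104695.3 on its own strand. Whether the authors counted by strand is not given in the sources used here, so reads of FOSB, JUNB and FOSL2 cannot be told apart from those of these neighbours where they overlap, and for AC104695.3 counting by strand would not separate them.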

How the data were processed

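RNA-seq of 18 libraries in 6 groups of 3 was analysed as 3 comparisons, each within its own table. The authors deposited the first table as a signal, and 100% of its values were whole multiples of a step per library (within 0.05 read), which gave 15504205 to 18965163 reads per SW480-P and 15531517 to 16586016 per SW480-LM3 library. The authors deposited the other tables as TPM, so their depth is unknown. HISAT2 2.1.0 and Bowtie2 2.3.5 are named without roles, per the submitters' processing notes; the sources used here give no counter, build or annotation. As no table holds counts, the test was limma 3.58.1 (R 4.3.3) with a variance trend on log2(value + 1) of the deposited values, two-sided, for genes that reached 1 in 3 or more libraries, Benjamini-Hochberg adjusted over all genes tested and called under 0.05. edgeR 4.0.16 and DESeq2 1.42.0 on the recovered reads called 13107 and 12940 genes, against 12749 by limma. Fits were tested on simulated data. Other alternatives were scaling, pseudocount, filter, variance trend, replicate block and leaving out each library. Removal of a GC and length trend (loess, span 0.5, longest GENCODE transcript), also without LV5-NID1 replicate 3, was added after seeing the data. The labels do not say whether replicate numbers pair libraries, so the main fits were unpaired. The correlations of same-numbered libraries given below cannot exclude pairing.

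The members and lists were chosen with earlier results of these data known. Besides the 10 members and NID1, the genes named are, per list and comparison, up to 3 called genes with the smallest adjusted p and up to 2 with the largest change, and the 3 nearest in pattern to FOS, FOSL1, EGR1 and MYC; RNASEH2A and overlapping genes were named after their rows were seen. Listed genes were described by counts without a set test. Some genes that this rule selects are not reported here.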

Additional observations from a re-analysis of the deposited data

How the results depend on the processing

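Of 460 refits of single members, 401 kept direction and side of the threshold, 33 lost a call, 10 gained one and 16 changed sign; the signs that changed were those of FOSB in SW480-LM3, JUN and JUND in LX-2 and FOSL1 and JUN in LV5-NID1, none of them called. Calls of FOS, FOSL1, FOSL2, JUN, JUNB, JUND, EGR1 and MYC in SW480-LM3, FOSB, EGR1, ATF3 and MYC in LX-2, and FOSL2 and EGR1 in LV5-NID1 held in every alternative in which they were fitted. The causes of the changes below were not tested. Values are log2 fold changes. With the GC and length trend removed, FOSB in SW480-LM3 was -0.80, JUN, JUNB and JUND in LX-2 were 0.16, 0.32 and 0.069, and FOSL1, JUN and MYC in LV5-NID1 were 0.022, 0.12 and 0.28; with LV5-NID1 replicate 3 also left out, JUN, JUNB and MYC were 0.23, -0.69 and 0.32, and 3971 genes were called, 2328 of them lower. Quantile normalization gave 0.19 for ATF3 in SW480-LM3, 0.078 for FOSL1 and -0.10 for JUN in LX-2, and 0.051 for JUN and -0.37 for ATF3 in LV5-NID1. Library-total scaling gave 0.16 for FOSB in SW480-LM3, median-ratio scaling 0.18 for JUNB in LX-2, and a pseudocount of 5 gave 0.0048 for JUN in LV5-NID1.

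Without the low-value filter, FOS (0.52), FOSL1 (0.23) and FOSL2 (0.26) in LX-2 and ATF3 in LV5-NID1 (-0.43, adjusted p = 0.08) lost their calls, and 1532 genes were called in LV5-NID1, 521 of them higher. Without a variance trend FOSL1 in LX-2 (0.23, adjusted p = 0.0629) lost its call. Same-numbered libraries correlated at -0.047 to 0.063 in their deviations and not every library correlated best with its own number; the replicate block left 890 genes called in LV5-NID1, 233 higher and 657 lower, and took the calls of FOSL1 (0.23), FOSL2 (0.26) in LX-2 and ATF3 (-0.43) in LV5-NID1, and changed no other call of a member.

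Leaving out each library in turn gave -0.19 to 0.10 for FOSB and 0.30 to 0.48 for ATF3 in SW480-LM3. In LX-2 it gave 0.38 to 0.60 for FOS, 0.18 to 0.30 for FOSL1, 0.19 to 0.33 for FOSL2, -0.043 to 0.081 for JUN and 0.051 to 0.21 for JUNB. In LV5-NID1 it gave -0.79 to -0.63 for FOS, -0.15 to 0.19 for JUN, -1.18 to -0.51 for JUND, -0.49 to -0.34 for ATF3 and 0.12 to 0.28 for MYC, with 713 to 3325 genes called, 185 to 1299 higher and 494 to 2026 lower. Of 968 refits of list counts and of summed family TPM, 124 moved. A count moved if it changed by over 1.5 times, or from or to none, and a sum if it changed by at least its SD. FOSB and EGR1 in LV5-NID1 could not be fitted under every filter. Depth limits FOSB in SW480-LM3, at 43 to 69 reads a library; for TPM no depth is known.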
